A study of Mus musculus with 6 samples.

Results

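Coch encodes cochlin, a secreted protein of the extracellular matrix, and it was 1 of the 477 genes whose transcripts were imaged in 4 sections of mouse blood-forming tissue. The gene (ENSMUSG00000020953 in the panel's feature list) was selected for description because earlier results of these same data showed a high level in the untreated spleen and a large fall after phenylhydrazine (PHZ). Its level in each section and the difference between the spleens are therefore given as descriptions, with no test. Coch is 1 of 5294 genes over both gene panels of the series, and 4 of its 6 sections, 1 per group, list it. The other sections (E13.5 fetal liver and bone marrow of 89-week-old mice) were imaged with a panel of 5050 genes without Coch.

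All mice were wild type and came from the Jackson Laboratory. The untreated spleen came from an adult, for which the methods give 2 months and the reporting form 3 months of age. The PHZ-treated spleen came from a mouse given 40 mg/kg PHZ, a drug that lyses red blood cells, intraperitoneally 2 times per day on 2 days. A supplementary figure legend gives 2 months as the age of this mouse. The methods name PBS for control mice, whereas the labels call the control spleen only wild type and adult. Both spleens were formalin-fixed, embedded in paraffin, and imaged on the same slide in the same run. The E14.5 fetal liver (a wild-type embryo at embryonic day 14.5) and the P8 bone marrow (postnatal day 8) shared another slide of that run. With 1 section per group, the variation between animals was not measured, and every interval below is a 95% exact Poisson or exact binomial interval that covers counting error only.

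Cochlin carries an LCCL domain and von Willebrand factor A domains, and it is best known from the inner ear, where mutations of the human gene cause hearing loss. In lymphoid tissue it is known as a product of follicular dendritic cells, the stromal cells of B cell follicles, from which its LCCL domain can be released during infection. The spleen is built of white pulp, where T cells and B cell follicles lie, and red pulp, where macrophages clear red cells and recycle their iron within a meshwork of fibroblast-like reticular cells and sinuses. After hemolysis the mouse red pulp becomes a site of red cell production.

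The untreated spleen held 108338 segmented cells with 10351683 gene transcripts, and the PHZ-treated spleen 94582 cells with 11430388. A segmented cell is a stained nucleus with an expanded outline, so that transcripts of a neighboring cell can be counted in it. Median depth was 84 transcripts per cell in the untreated spleen, 104 in the PHZ-treated spleen, 167 in the E14.5 fetal liver and 109 in the P8 bone marrow. T cell genes, which mark the white pulp, summed to 31102 CPM in the untreated spleen and 7201 CPM after PHZ, and the summed level of 11 erythroid genes went from 31843 CPM in the untreated spleen to 247167 CPM after PHZ. CPM is a gene's transcripts scaled to a total of 1000000 gene transcripts in the cells concerned. At most 6 cell identifiers were shared between any pair of the 4 sections.

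Coch was among the most abundant genes of the untreated spleen and was sparse outside the spleen. The untreated spleen held 138399 Coch transcripts in cells, or 13370 CPM (interval 13299 to 13440), which placed Coch at rank 19 of 477 genes. The PHZ-treated spleen held 13603 transcripts, or 1190 CPM (1170 to 1210), at rank 136. The P8 bone marrow held 260 transcripts, or 40.3 CPM (35.6 to 45.5), and the E14.5 fetal liver held 473, or 22.6 CPM (20.6 to 24.7). No neighbors in this order had overlapping intervals, although a difference between animals of the size seen between the latter sections could not be judged from 1 section each.

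Background was read from the negative control probes, which are designed against sequences foreign to the mouse. The most abundant of 20 such probes gave 77 transcripts in the untreated spleen and 76 after PHZ. Coch therefore exceeded the most abundant control probe 1797-fold and 179-fold in these sections. In the P8 bone marrow the excess was 6.50-fold over 40 control transcripts, and in the E14.5 fetal liver it was 4.50-fold over 105. The most abundant negative control codeword of the E14.5 fetal liver reached 174 transcripts, which left Coch 2.72-fold above it.

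**Figure D1:**
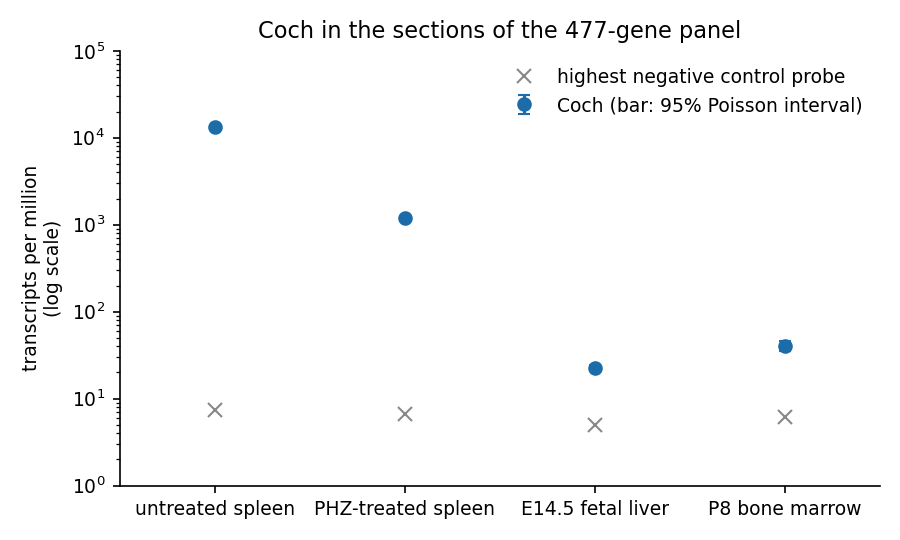
Coch level in CPM (log axis) in the 4 sections of the 477-gene panel, with 95% Poisson intervals that are mostly smaller than the points, and the most abundant negative control probe of each section as a cross. The untreated spleen lies at 13370 CPM, the PHZ-treated spleen at 1190 CPM, and the fetal liver and marrow lie at 22.6 and 40.3 CPM.

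Many cells of the untreated spleen carried Coch, and most of its transcripts lay in the cells with at least 3. At least 1 Coch transcript was found in 47490 cells of the untreated spleen, or 43.8% (43.5% to 44.1%), and at least 3 in 17717 cells, or 16.4%. These latter cells held 71.3% of all Coch transcripts, and the richest cell held 39. In the PHZ-treated spleen, 9301 cells were positive, or 9.83% (9.64% to 10.03%), 963 cells (1.02%) held at least 3, and the maximum was 11. Cells with 10 or more Coch transcripts numbered 2048 in the untreated spleen and 4 after PHZ.

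The fetal liver and marrow had no such cells. The E14.5 fetal liver held 470 positive cells, or 0.401% (0.365% to 0.438%), and the P8 bone marrow 256, or 0.487% (0.429% to 0.550%). No cell of either section held more than 2 Coch transcripts.

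Positive cells were deeper than negative ones and larger than cells at large in both spleens. Their median depth was 99 transcripts against 74 in negative cells of the untreated spleen, and 148 against 100 in the PHZ-treated spleen. When cells were thinned to 50 gene transcripts and shallower cells left out, 91399 cells of the untreated and 79842 of the PHZ-treated spleen remained. The share of positive cells was then 34.2% in the untreated spleen and 5.04% after PHZ. The order of the spleens was the same at equal depth. Median cell area was 40.3 µm2 in positive cells against 35.6 µm2 over all cells of the untreated spleen, and 70.3 against 53.0 µm2 after PHZ.

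Coch was 11.2-fold lower in CPM in the PHZ-treated than in the untreated spleen, at a ratio of 0.0890 (0.0875 to 0.0906). Among the 343 genes with at least 1000 counts over both spleens it had rank 5 by fall. A fall of at least 10-fold was shared by 1.46% of these genes, which is Coch and the 4 genes ahead of it, and nothing is read from that share because the gene was selected on this contrast. The median gene stood at 0.677 of its untreated CPM, and Coch was 7.61-fold lower relative to that median. Per cell, Coch went from 1.28 to 0.144 transcripts, a difference of 8.88-fold, and per square millimeter of tissue the difference was 15.4-fold. In sections, fewer cells of a type and less RNA per cell give the same fall in a total, and cells gated on stromal genes, further on, give both values.

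The genes around Coch in this order were of several kinds. Car3 (carbonic anhydrase 3), Pck1 (a gluconeogenic and glyceroneogenic enzyme) and Retn (resistin), all abundant in fat, stood at 0.0290, 0.0555 and 0.0726 of their untreated CPM. Ncr1, the NKp46 receptor of natural killer cells, stood at 0.0525. Directly after Coch (0.0890) came the secreted BMP and Wnt antagonist Sostdc1 at 0.102, the T cell coreceptor chain Cd8a at 0.117, the follicular homing receptor Cxcr5 at 0.117, the potassium channel Kcnj16 at 0.123 and the cytochrome P450 enzyme Cyp4b1 at 0.124. Cyp4b1 returns below as the gene most enriched in Coch-positive cells of the untreated spleen.

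The lower level was seen across the whole section. In tiles of 500 µm with at least 200 cells, Coch ranged from 4996 to 27281 CPM with a median of 14012 over 26 tiles of the untreated spleen. It ranged from 388 to 2060 CPM with a median of 1111 over 40 tiles of the PHZ-treated spleen. Every tile of the untreated spleen lay above every tile of the other, a pattern shown by 4.08% of the 343 genes. Nothing is read from that share, because the gene was selected on this contrast. Tiles of 1 section share an animal and are not replicates. At the finer scale of 50 µm squares the spleens overlapped: the 95th percentile was 3538 CPM over 2600 squares after PHZ, and 79.9% of the 1752 untreated squares lay above it.

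**Figure D2:**
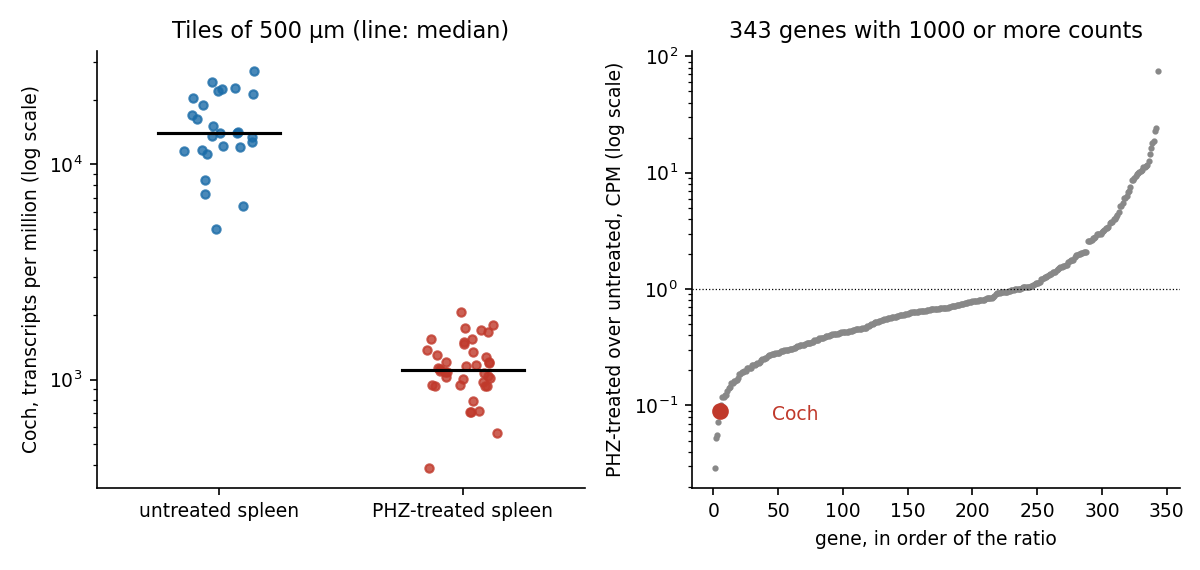
Left, Coch in CPM (log axis) in tiles of 500 µm of each spleen, 1 point per tile, with the median as a line: the lowest untreated tile lies at 4996 and the highest PHZ-treated tile at 2060. Right, the PHZ-treated over untreated ratio of CPM (log axis) of the 343 genes in ascending order, with Coch marked at 0.0890.

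Decoding quality moved with the difference. The quality score is logarithmic, and the deposited counts keep transcripts of a score of at least 20. Of all decoded Coch transcripts, 88.8% reached that score in the untreated spleen and 53.4% after PHZ, against 90.5% and 70.9% over all genes. In the PHZ-treated spleen, 17 of 273 genes with at least 1000 counts had a lower share than Coch. With every decoded transcript counted, 157057 and 26065 Coch transcripts remained and the difference was 8.60-fold, a setting chosen after seeing the data. At a score of at least 40 it was 10.6-fold, and the part of decoding quality in the result was not tested.

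In the P8 bone marrow only 29.8% of decoded Coch transcripts reached the score of 20, and 60.7% of those lay in a cell, against 89.4% over all genes there. In the E14.5 fetal liver 55.6% reached it. What gave rise to these low shares was not tested.

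Where Coch lay in the untreated spleen was read from squares of 50 µm with at least 10 cells, ranked by their share of Slc40a1, Spic and Vcam1. Slc40a1 encodes the iron exporter ferroportin, Spic the transcription factor of red pulp macrophages, and Vcam1 an adhesion molecule that these macrophages also carry. The squares were divided into 3 equal parts by this score. In the part poorest in these genes, Coch stood at 5773 CPM (5693 to 5853), in the middle part at 13563 CPM (13437 to 13689), and in the richest part at 20688 CPM (20538 to 20839). Rich squares thus held 3.58-fold the Coch CPM of poor ones (3.53 to 3.64), and over 10 equal parts of the squares the level was higher at each step, from 3248 to 22899 CPM.

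Coch-positive cells made up 23.1%, 46.3% and 67.9% of the cells in the poor, middle and rich part, and 53.1% of Coch transcripts lay in the rich part. A difference of at least 1.5-fold toward the rich squares was shown by 40.2% of the 259 genes compared, among which Coch ranked 42. The rich squares also held more transcripts per cell, with a median of 99 against 76 in the poor squares. T cell transcripts ran the other way, with 15535 CPM over the list of 9 genes in the rich and 52754 CPM in the poor squares. The 3 follicle genes (Cxcl13, Cxcr5 and Bst1) summed to 5047 CPM in the rich and 24698 CPM in the poor squares.

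The gradient was shallow after PHZ. Coch stood at 989 CPM (957 to 1022) in the poor, 1024 CPM (993 to 1056) in the middle and 1579 CPM (1538 to 1620) in the rich part. The rich squares held 1.60-fold the level of the poor ones (1.53 to 1.66), where 57% of 251 genes showed at least 1.5-fold and Coch ranked 136. The score did not part the same tissue there, since T cell transcripts were higher in the rich (14201 CPM) than in the poor squares (3752 CPM) and erythroid transcripts were lower (109209 against 331152 CPM). In the P8 bone marrow the ratio was 0.912 (0.613 to 1.38), and no gradient was detectable at these counts. In the E14.5 fetal liver it was 1.11 (0.881 to 1.39), and it depended on the grid, with 1.40 (1.07 to 1.84) in squares of 25 µm and 1.36 (1.08 to 1.72) on a grid shifted by 25 µm.

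Taken by rank of the score alone, the spleens differed 5.83-fold in the poor squares (5.63 to 6.05), 13.2-fold in the middle (12.8 to 13.7) and 13.1-fold in the rich squares (12.8 to 13.5). Because each part held other tissue in each spleen, as the T cell and erythroid transcripts show, these folds are not comparisons of like tissue and are not set against each other. With the score limits of the untreated spleen applied to both sections, the poor and rich folds were 5.84 and 13.8.

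**Figure D3:**
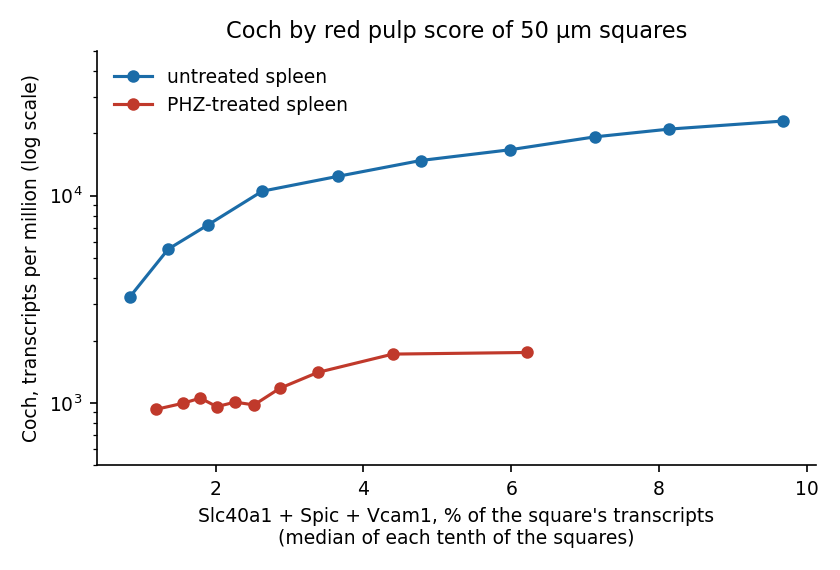
Coch in CPM (log axis) in 10 equal parts of the 50 µm squares of each spleen, ordered by the percentage of Slc40a1, Spic and Vcam1 among a square's transcripts. The untreated spleen climbs at each step from 3248 to 22899 CPM, whereas the PHZ-treated spleen lies between 930 and 1055 CPM over its first 6 parts and reaches 1752 CPM in the last.

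Other landmarks gave the same picture of position in the untreated spleen. Squares rich in T cell transcripts held 6423 CPM of Coch against 19034 CPM in squares poor in them. Squares rich in the follicle genes held 9098 CPM against 17533 CPM. Squares rich in Pdgfra and Pdgfrb, the platelet-derived growth factor receptors of fibroblast-like and mural cells, held 19529 CPM against 6381 CPM. Marginal zone macrophage genes (Marco and Siglec1) hardly parted the squares, with 13105 against 12670 CPM.

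After PHZ, the stromal receptors parted the squares most of these landmarks. Squares rich in Pdgfra and Pdgfrb held 2031 CPM of Coch against 502 CPM in squares poor in them. Squares rich in follicle genes now held the higher level, 1476 against 934 CPM, as did squares rich in T cell transcripts, 1361 against 1047 CPM. Squares rich in erythroid transcripts held the lower one, 743 against 1684 CPM. In the untreated spleen the erythroid-rich squares had held 18324 CPM against 9066 CPM.

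The genes whose level over squares was most like that of Coch were found by Spearman correlation, as a description over squares that share a section and a base of total counts. Over 1752 squares of the untreated spleen the leading genes were Mylk3, a myosin light chain kinase, at 0.73, Slc40a1 at 0.72, the angiogenic factor Vegfa at 0.70, Cyp4b1 at 0.67, Vcam1 and Spic at 0.66, Kcnj16 at 0.63 and the macrophage protein gene Cd5l at 0.63. The lowest were Cd4 at -0.61, Laptm5 at -0.59, the immunoproteasome subunit Psmb8 at -0.58, Ms4a6b at -0.57 and the T cell chromatin organizer Satb1 at -0.56.

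Over 2600 squares of the PHZ-treated spleen, 5 of the 8 leading genes were on the stromal list (Pdgfrb, Pdgfra, Col1a2, Bgn and Col1a1), which made up 13 of the 270 genes compared. Pdgfrb led at 0.62, followed by the ferroxidase ceruloplasmin (Cp) at 0.58, Pdgfra at 0.57, the collagen genes Col1a2 at 0.55 and Col1a1 at 0.50, the matrix proteoglycan Bgn at 0.52, the muscle intermediate filament Des at 0.47 and Igfbp7 at 0.45. Among the lowest were the mitochondrial iron importer Slc25a37 at -0.34, the red cell anion exchanger Slc4a1 at -0.34, both on the erythroid list, Ctse at -0.33 and Car2 at -0.33. Slc40a1 stood at 0.18 and Mylk3 at -0.22 there.

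Coch-positive cells of the untreated spleen were richest, against negative cells, in Cyp4b1, Angpt2 and Vegfa, and 7 of 14 genes of the stromal list were at least 2-fold higher in them and 2 were at a ratio of 0.5 or less. Cells were thinned to 50 transcripts other than Coch, which left 42792 positive and 48129 negative cells, and 17417 shallower cells were left out. Cyp4b1 was 9.25-fold higher in positive than in negative cells, at 1123 against 121 CPM. Next came the vessel-destabilizing ligand Angpt2 at 5.14-fold, Vegfa at 4.81-fold, Mylk3 at 4.65-fold, the matrix-associated Ccdc80 at 4.46-fold and Pdgfrb at 4.30-fold. The elastic fiber protein gene Fbln5 followed at 4.03-fold, Pdgfra at 3.51-fold and, lower, the secreted Wnt modulator Sfrp1 at 2.78-fold.

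Of the 292 genes compared, 32 were at least 2-fold higher in Coch-positive cells, or 11%, and the median gene stood at 1.03. Beside the stromal list, the endothelial list had 4 of 11 genes at that ratio, the erythroid list 5 of 11 and the mural list 2 of 7. The T cell, NK cell, follicle and red pulp macrophage lists had none. The red pulp macrophage list had a median of 1.56, with Slc40a1 at 1.97, Vcam1 at 1.7 and Spic at 1.54. The follicle genes Cxcl13 and Cxcr5 stood at 0.98 and 0.69, and the median of the T cell list was 0.455. The lowest genes were Car3 at 0.137, Retn at 0.189, the matrix proteoglycan Lum, of the stromal list, at 0.201, Pck1 at 0.211 and the protease Asprv1 at 0.349. These ratios compare all positive with all negative cells of the section. Positive cells made up 67.9% of cells in the rich and 23.1% in the poor squares. The part of position in the ratios was not tested.

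From the PHZ-treated spleen, 8861 positive and 70949 negative cells were compared in the same way. Pdgfrb was 5.93-fold, Pdgfra 4.85-fold, Cp 4.48-fold and Ccdc80 4.24-fold higher in the positive cells. Of 272 genes, 36 were at least 2-fold higher, or 13.2%, among them 9 of 13 stromal and 4 of 7 mural genes. The endothelial and erythroid lists each had 0 of 11 genes at that ratio. Angpt2 (2.54), Vegfa (3.14), Fbln5 (2.21) and Sfrp1 (3.41) stood above 1 as in the untreated spleen, and Mylk3 stood at 0.701. Cyp4b1 had under 1000 counts there and was not ranked. Cxcl13, the B cell attracting chemokine of follicles, stood at 2.59 and was the 1 follicle gene of 3 above 2.

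**Figure D4:**
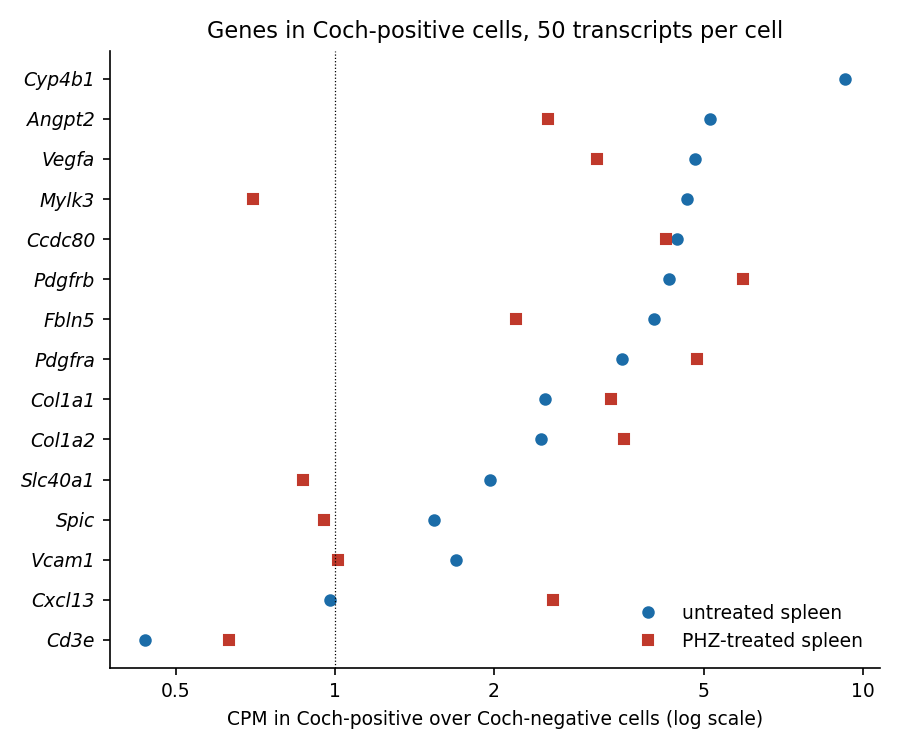
Ratio of CPM in Coch-positive over Coch-negative cells (log axis), each cell thinned to 50 transcripts other than Coch, for the 8 highest genes of the untreated spleen and 7 landmark genes. Circles are the untreated and squares the PHZ-treated spleen, Cyp4b1 has no square because it had under 1000 counts there, and Pdgfra, Pdgfrb and Ccdc80 lie above 3 in both.

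Pdgfrb, Cyp4b1 and Vegfa stood higher in cells with more Coch transcripts. In the untreated spleen, Pdgfrb went from 835 CPM in cells without Coch through 1428 CPM in cells with 1 and 3622 CPM in cells with 3 to 4 to 15581 CPM in cells with 10 or more. Cyp4b1 went from 121 to 6987 CPM and Vegfa from 931 to 25252 CPM between cells with none and with 10 or more. Cd3e, a chain of the T cell receptor complex, went from 14326 to 2028 CPM between the same cells. The red pulp score genes differed from each other. Spic stood at 7107 CPM in cells without Coch, was highest at 2 transcripts (11835 CPM) and stood at 8760 CPM in cells with 10 or more. Between cells with none and with 10 or more, Slc40a1 went from 15178 to 41490 CPM and Vcam1 from 9228 to 17442 CPM. Median cell area also differed, from 35.3 to 55.9 µm2.

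After PHZ, Pdgfrb went from 1560 CPM in cells without Coch to 31010 CPM in cells with 5 to 9 transcripts, and Col1a2 from 5039 to 42020 CPM. Only 198 cells were in that class, and 4 cells held more. Median area went from 56.4 to 119 µm2 between the same classes.

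A gate on Pdgfra and Pdgfrb, chosen after the genes above were seen, took the cells with at least 2 transcripts of both genes together. It held 8211 cells of the untreated spleen (7.58%) and 9339 of the PHZ-treated spleen (9.87%), or 1757 and 1324 cells per square millimeter. With at least 1 transcript of either gene over the nucleus instead, it held 12861 (11.9%) and 10999 cells (11.6%), or 2752 and 1559 per square millimeter, with Coch at 32267 and 4127 CPM. So the share of gated cells was higher or slightly lower after PHZ depending on the gate, and their number per area was lower under both. Cells with at least 2 transcripts of both together carried 5.34 Coch transcripts each in the untreated spleen and 0.779 after PHZ. In CPM, Coch in the gate was 36807 (36464 to 37154) and 4567 (4462 to 4673), an 8.06-fold difference (7.86 to 8.26). Gated cells were present in both spleens and held less Coch after PHZ, but they are not shown to be 1 class of cell. Of the clusters rich in both receptors, some lay almost wholly in 1 spleen and others held many cells of both (given with the clusters). Median depth in the gate was 125 and 153 transcripts, and median cell area 47.1 and 77.7 µm2.

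In the untreated spleen the gate held 31.7% of all Coch transcripts, and after PHZ it held 53.5%. Of its cells, 82.8% (82.0% to 83.6%) were Coch-positive in the untreated spleen and 41.8% (40.8% to 42.8%) after PHZ. T cells, which are not known as a source of cochlin, were counted for comparison. In the untreated spleen they lay mostly in the squares poor in Coch and so give no background level for cells of the red pulp. After PHZ, squares rich in T cell transcripts held more Coch than squares poor in them. Their level is not taken as a background level in either spleen. Cells with at least 2 transcripts of Cd3d and Cd3e and none of the Pdgf receptors were Coch-positive in 26.8% (26.2% to 27.4%) and 5.38% (4.74% to 6.08%) at median depths of 86 and 77. At 50 transcripts per cell the shares were 69.2% in gated against 18.3% in T cells in the untreated spleen, and 19.3% against 3.41% after PHZ. All other cells stood at 35.3% and 3.19%, and how much of this was background was not tested. In CPM, Coch in these T cells was 5606 in the untreated spleen and 742 after PHZ. In all other cells it was 11868 and 639 CPM. The lower level after PHZ was thus seen outside the gate as well as in it.

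Within the gate, Coch ranked 6 by fall of 233 genes with at least 1000 counts, of which 5.58% were at least 5-fold lower. Nothing is read from this rank, because the gene was selected on the contrast of these spleens. Car3, Retn and Ncr1 again stood lowest, and Cyp4b1 was 11.04-fold lower (10.01 to 12.2), from 3133 to 284 CPM. Other genes of the Coch-positive cells differed less in the gate, with Fbln5 at 0.257 of its untreated CPM, Angpt2 at 0.341, Ccdc80 at 0.343, Vegfa at 0.451 and Mylk3 at 0.577. The collagen genes were not lower, with Col1a2 at 1.22 and Col1a1 at 2.61, and Cp stood at 1.66. The inflammation-linked genes Tnfaip6 and Cxcl1 stood at 3.93 and 5.74. All 11 erythroid genes stood higher in the same cells after PHZ, from the iron importer Slc25a37 at 2.82 through Hbb-bt at 3.30, Slc4a1 at 6.27 and the transcription factor gene Klf1 at 10.8 to the blood group gene Rhd at 15.3, and their part in the result was not tested.

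Coch in cells outside the gate was lower the farther they lay from it. In the untreated spleen, cells up to 10 µm from the nearest gated cell held 1.54 transcripts each (1.53 to 1.55). Those at 10 to 20 µm held 0.894, those at 20 to 30 µm 0.483, those at 30 to 50 µm 0.262 and those at 50 to 100 µm 0.142 (0.126 to 0.160). In the PHZ-treated spleen the same rings held 0.137 (0.132 to 0.142), 0.0713, 0.0435, 0.0322 and 0.0115 (0.00761 to 0.0168). Coch in CPM was lower with distance as well, from 15612 to 1999 in the untreated spleen and from 1265 to 137 after PHZ, and the rings also differ in tissue.

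**Figure D5:**
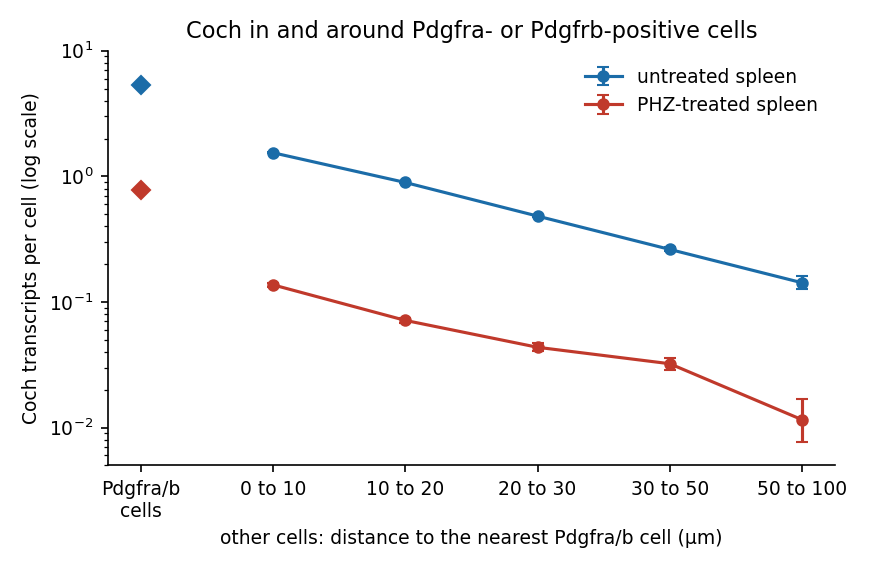
Coch transcripts per cell (log axis) in cells with at least 2 transcripts of Pdgfra and Pdgfrb (diamonds) and in all other cells by distance from the nearest such cell (circles, with 95% Poisson intervals). Both spleens decline with distance, and the PHZ-treated spleen lies below the untreated one in every class.

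Transcripts over the stained nucleus are less open to a neighbor's transcripts than those in the expanded outline. Of Coch transcripts in cells, 53.2% lay over a nucleus in the untreated spleen and 46.7% after PHZ, against 58.9% and 51.0% over all genes. The other sections ran the other way, with 82.0% against 57.2% in the E14.5 fetal liver and 65% against 48.9% in the P8 bone marrow. What gave rise to this was not tested. Counting only transcripts over the nucleus, the spleens differed 11.1-fold in CPM. In the nuclear counts of the untreated spleen the 10 genes with the highest ratio in Coch-positive cells were the same 10 as before, led by Cyp4b1 at 11.5-fold, Vegfa at 6.54-fold and Ccdc80 at 5.84-fold.

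Clusters made without Coch placed it by all other genes. Both spleens were clustered together into 10 clusters, and the level of Coch was lower after PHZ in all of them. In the untreated spleen it was highest in an unnamed cluster of 12281 cells led by AU021092, the lymphatic endothelial regulator Prox1 and the signaling protein gene Bmp2, with 29491 CPM and 30.4% of all Coch transcripts. That cluster had 1544 CPM over 3925 cells in the PHZ-treated spleen. The red pulp macrophage-like cluster held 15866 and 451 CPM, the T cell-like cluster 5438 and 581 CPM. With 25719 cells in the untreated spleen, the red pulp macrophage-like cluster also held 30.4% of the Coch transcripts there. After PHZ the level was highest in an unnamed cluster led by Car3, Upk3b and Retn, at 2520 CPM, followed by an unnamed cluster with Dsc3, Thbs4 and Cxcl13 among its leading genes, at 2355 CPM. Leading genes were taken over both spleens together. At a resolution of 1.0 a fat-like cluster held 0 cells of the PHZ-treated spleen. Mesothelial-like clusters at that resolution held 1757 of its cells at 2481 CPM and 852 at 768 CPM. In the untreated spleen they held 2009 cells at 17759 CPM and 1481 at 7084 CPM. The larger one was rich in Pdgfra and Pdgfrb, at 6093 and 12228 CPM over both spleens. An unnamed cluster led by Dsc3, Thbs4 and Cxcl13 at that resolution had 4392 and 4703 CPM of these receptors. It held 11193 cells of the untreated spleen (Coch at 11463 CPM) and 8325 after PHZ (2255 CPM). Among the 10 clusters, an erythroid-like cluster of 23418 cells at 1323 CPM held 42.5% of the Coch transcripts after PHZ, which was not so in finer clusters.

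At the finer resolution of 1.0, the 3 erythroid-like clusters stood at 289, 318 and 604 CPM after PHZ and held 5.40%, 5.26% and 1.88% of its Coch transcripts. At this resolution, a stromal-like cluster led by Cyp4b1, Ccdc80 and Angpt2 held 4236 cells of the untreated and 277 cells of the PHZ-treated spleen. Coch reached 58075 CPM there in the untreated spleen, the highest of the 19 clusters, and 95.4% of its cells were positive. It was 3607 CPM in the cells of the PHZ-treated spleen. An unnamed cluster with Pdgfra, Pdgfrb, Tnfaip6 and Cxcl1 among its leading genes, together with the erythroid genes Epor and Gata1, held 54 cells of the untreated and 8597 of the PHZ-treated spleen, with 24782 and 3341 CPM, and it held 38.0% of the Coch transcripts after PHZ. The kind of cluster with the highest level in the untreated spleen was not the same at every setting. It was red pulp macrophage-like at resolution 0.2, with 51.0% of the Coch transcripts, and endothelial-like when that spleen was clustered alone, with 37.6%. A cluster that belongs almost wholly to 1 section may reflect that section.

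The cell types and the protein class around Coch differed as follows between the spleens, read against 48.1% of the 343 genes that were at least 1.5-fold lower and 22.4% that were at least 1.5-fold higher. Of the T cell list 8 of 9 genes were lower, with Cd3e at 0.163 and Cd4 at 0.231. Of the NK cell list 3 of 3 were lower, including Klrb1c at 0.156. Of the follicle list 2 of 3 were lower, with Cxcl13 at 0.565 and Bst1 at 1.05. In the untreated spleen, T cell and follicle transcripts were those of the poor squares, where Coch was lowest.

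Of the red pulp macrophage list 6 of 9 genes were lower, with Spic at 0.364, Vcam1 at 0.440, Slc40a1 at 0.804 and C1qb at 0.945. Of the marginal zone macrophage genes Siglec1 stood at 0.307 and Marco at 1.06. Of the stromal list 8 of 14 were lower and 1 higher, from Lum at 0.280 to Col1a1 at 3.0, with Pdgfra at 1.24 and Pdgfrb at 1.09. All 11 erythroid genes were higher. Coch lay below every gene of these lists other than Ncr1, and nothing is read from this because the gene was selected on this contrast.

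Cochlin's own class, the secreted matrix and matrix-binding proteins, did not differ in 1 direction. Of 28 such genes on the panel 23 had at least 1000 counts, and 14 were at least 1.5-fold lower, 3 higher, with a median ratio of 0.622 against 0.677 over all genes. Fbln5 stood at 0.311, Ccdc80 at 0.318 and Bgn at 0.833, whereas Tnfaip6, a hyaluronan-binding protein induced by inflammation, stood at 2.80 and Col1a1 at 3.0. Coch at 0.0890 lay below the lowest of them, Lum at 0.280, and nothing is read from this place because Coch was selected on its fall.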

How the data were processed

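Transcripts of 477 genes were imaged in situ (Xenium) in 4 sections that list Coch. The deposited counts are whole-number counts of decoded transcripts per gene and segmented cell, made by the authors with Xenium Onboard Analysis 1.7.1.0 per the run description, whereas the methods name Space Ranger. Each decoded transcript carries a quality score in the deposited transcript lists, and only transcripts scoring at least 20 entered the counts. Counts rebuilt from the lists equaled the deposited ones for all 477 genes. The deposited center coordinates of the cells placed them in squares of 50 µm with at least 10 cells.

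Counts were summed per section, square part, gate or cluster and scaled to CPM. Depth ranged from 6446659 to 20952143 gene transcripts per section. With 1 section per group no test was run, and exact Poisson and binomial intervals at 95% cover counting error only. Co-detection used cells thinned to 50 transcripts (seed 1). Genes needed at least 1000 counts. Clusters were made without Coch from 10 principal components with 30 neighbors by the Leiden method, no doublet caller was run, and cells with fewer than 5 genes were left out of clustering. Named genes were the 10 highest and 5 lowest ratios in Coch-positive cells of the untreated spleen, the 8 highest and 5 lowest correlations over squares, the genes next to Coch by fall, and 2 to 4 values per list, and 2 genes that this rule selects are not reported here. Other genes named in the gate, in clusters and in the count classes were chosen after their values were seen. Coch, the lists and the rules were chosen with earlier results of these data known. Python 3.11.15, NumPy 2.4.6, SciPy 1.17.1, pandas 2.3.3, scikit-learn 1.9.0, leidenalg 0.10.2 and matplotlib 3.10.9 were used. Alternatives covered the counting unit, quality, square size, score, thinning and cluster resolution.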

Additional observations from a re-analysis of the deposited data

How the results depend on the processing

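Of 78 alternatives over 17 results, 46 moved a value by more than its counting interval, or a count of genes by more than 1.5 times, and 32 did not. The direction turned for none of the results in the spleens. The rich over poor ratio of the E14.5 fetal liver (1.11) ranged from 0.999 with Slc40a1 and Spic only to 1.36 (1.08 to 1.72) on a shifted grid and 1.40 (1.07 to 1.84) at 25 µm, and that of the P8 bone marrow (0.912) was 1.20 at 100 µm, 1.001 between the outer of 4 parts and 1.06 with at least 5 cells per square, and both main intervals include 1. The fall of Coch was 11.2-fold in CPM and ranged from 8.06 to 15.4: 8.88 per cell, 15.4 per square millimeter, 10.8 without Hbb-bt, 8.74 without the erythroid genes, 8.88 also without the red pulp macrophage and neutrophil genes, and 10.6 at a quality of at least 40. Alternatives chosen after seeing the data gave 8.60 with all decoded transcripts and 8.06 in cells with Pdgfra and Pdgfrb.

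The share of Coch-positive cells depended on the definition. With at least 2 transcripts, at least 3, thinning to 50, and transcripts over the nucleus only, it was 25.6%, 16.4%, 34.2% and 30.6% in the untreated spleen and 2.65%, 1.02%, 5.04% and 5.04% after PHZ. The same definitions gave 0.00256%, 0%, 0.108% and 0.328% in the E14.5 fetal liver and 0.00761%, 0%, 0.222% and 0.321% in the P8 bone marrow.

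The rich over poor ratio of the untreated spleen was 3.31 in squares of 100 µm, 3.33 at 25 µm, 3.74 with Slc40a1 and Spic only, 4.60 between the outer of 4 parts, 3.49 on a grid shifted by 25 µm and 4.76 per cell. After PHZ it was 1.84 at 100 µm, 1.17 at 25 µm, 1.72 between the outer of 4 parts, 1.42 per cell and 1.52 with the limits of the untreated spleen. Within poor squares the spleens differed 4.02-fold per cell and 5.37-fold with Slc40a1 and Spic only, and within rich squares 13.8-fold with the untreated limits and 13.5-fold per cell.

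Genes at least 2-fold higher in cells with at least 3 Coch transcripts numbered 52 in the untreated spleen, against 32. The highest cluster of the untreated spleen held 58075 CPM at resolution 1.0 (stromal-like), 19136 at 0.2 (red pulp macrophage-like) and 31942 when clustered alone (endothelial-like), and that of the PHZ-treated spleen 3607 at 1.0 and 3904 alone. The cause of these shifts was not tested.

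No paired analysis was possible because each group holds 1 section. The sections give no error between animals, the expanded outlines assign some transcripts to neighboring cells, and the counts of Coch in fetal liver and marrow (473 and 260) exceed the highest control probe or codeword only 2.72-fold and 6.50-fold.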
